A study of Mus musculus with 10 samples.

Results

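The CC chemokines and their receptors were followed in the liver after injection of CD95-Ab, an antibody that activates the death receptor CD95 (Fas), and in saline-injected controls. The genes were chosen by name, as the ligands Ccl2, Ccl3, Ccl4, Ccl5, Ccl6, Ccl7, Ccl9 and Ccl12 and the receptors Ccr1 and Ccr2, which makes 10 of the 38922 genes in the count tables. Wild-type male C57BL/6N mice aged 6 weeks received 0.5 μg/g of CD95-Ab or an equal volume of saline i.p., and livers were harvested 6 h later. There were 5 mice per group, and each mouse gave its own library from 500 ng of total RNA, read as pairs of 100 bp. No mouse carried a transgene or a deletion, and saline was the only control. Each library held between 25965699 and 62097636 counts, so that 3 counts corresponded to between 0.0483 and 0.116 counts per 1000000 (CPM). Whole liver was measured, so that fewer cells of a type and less RNA per cell cannot be told apart. The tissue label was checked against 9 hepatocyte markers, which summed to at least 56082 CPM in every mouse, whereas the degree of liver injury was not measured in these files.

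CC chemokines are small secreted proteins with a pair of adjacent cysteines near the N-terminus, and they guide leukocytes along a gradient through receptors that couple to inhibitory G proteins. CCR2 is the main receptor by which monocytes leave the bone marrow and enter inflamed tissue, and CCL2, CCL7 and CCL12 bind to it. CCR1 is carried by monocytes, macrophages and neutrophils, and its mouse ligands include CCL3, CCL5, CCL6, CCL7 and CCL9. In the liver, resident macrophages (Kupffer cells), stellate cells, endothelial cells and hepatocytes are all known sources of such ligands.

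The feature that names the family is the pair of cysteine codons. The stretch of coding sequence around it is shown for the 8 ligands, as a description of how far they differ there. The cysteine codons are in capitals, in 51 bases of the transcript that GENCODE numbers first for each gene.
Ccl2: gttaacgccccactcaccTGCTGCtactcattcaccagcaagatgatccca
Ccl7: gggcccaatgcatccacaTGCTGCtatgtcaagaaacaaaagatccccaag
Ccl12: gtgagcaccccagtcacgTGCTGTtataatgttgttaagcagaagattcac
Ccl3: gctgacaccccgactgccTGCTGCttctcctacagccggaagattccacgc
Ccl4: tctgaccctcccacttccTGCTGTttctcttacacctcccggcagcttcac
Ccl5: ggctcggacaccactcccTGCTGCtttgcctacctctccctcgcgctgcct
Ccl6: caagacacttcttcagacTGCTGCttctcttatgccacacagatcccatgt
Ccl9: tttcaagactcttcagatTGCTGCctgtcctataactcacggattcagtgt
The cysteine pair lay at codons 33 and 34 or 34 and 35 in Ccl2, Ccl7, Ccl12, Ccl3, Ccl4 and Ccl5. It lay further in, at codons 50 and 51 of Ccl6 and at codons 57 and 58 of Ccl9, the only 2 of these ligands with a longer start. Ccl6 and Ccl9 shared 32 of the 51 bases (62.7%), as did Ccl3 and Ccl4, whereas Ccl12 and Ccl9 shared 12 (23.5%). No stretch of 100 bases in the annotated transcripts of the 8 ligands or of Ccr1 occurred in those of another gene, whereas 53 of the 6709 such stretches of Ccr2 (0.790%) did. Ccl2 overlaps Gm17268, which had 0 counts in every mouse, and Ccl6 overlaps E230016K23Rik, which had at most 14 counts in a mouse.

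All 10 genes were higher in livers of CD95-Ab mice at a false discovery rate (FDR) of 0.05 or less, by the quasi-likelihood test of edgeR over 13719 genes, in which 25.4% of tested genes were called higher. With the additional threshold of a log2 fold change of 2 or more, 8 of the 10 were called, compared to 6.59% of tested genes. The exceptions were Ccl5 and Ccl9. Ccl2, Ccl7, Ccl12, Ccl3, Ccl4 and Ccr1 did not have 10 counts in every control and entered the test through the antibody group. A call of lower was thus hardly possible for them. With at least 10 counts required in every mouse, only Ccl5, Ccl6, Ccl9 and Ccr2 were tested, so that 4 were called higher and 2 passed both thresholds. In all 10 genes the 5 CD95-Ab mice lay above the 5 controls on the CPM scale, a separation found for 18.6% of tested genes. On the FPKM scale, which the authors' files also give, 8 of the 10 were separate, and the ranges of Ccl5 and Ccl9 overlapped. The median log2 fold change was 5.33 for the 10 genes and 5.63 for the 8 ligands, compared to 0.0064 for all tested genes. The CPM values below were scaled with TMM factors, and the values of a group are given in the order of mice 1 to 5.

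**Figure D1:**
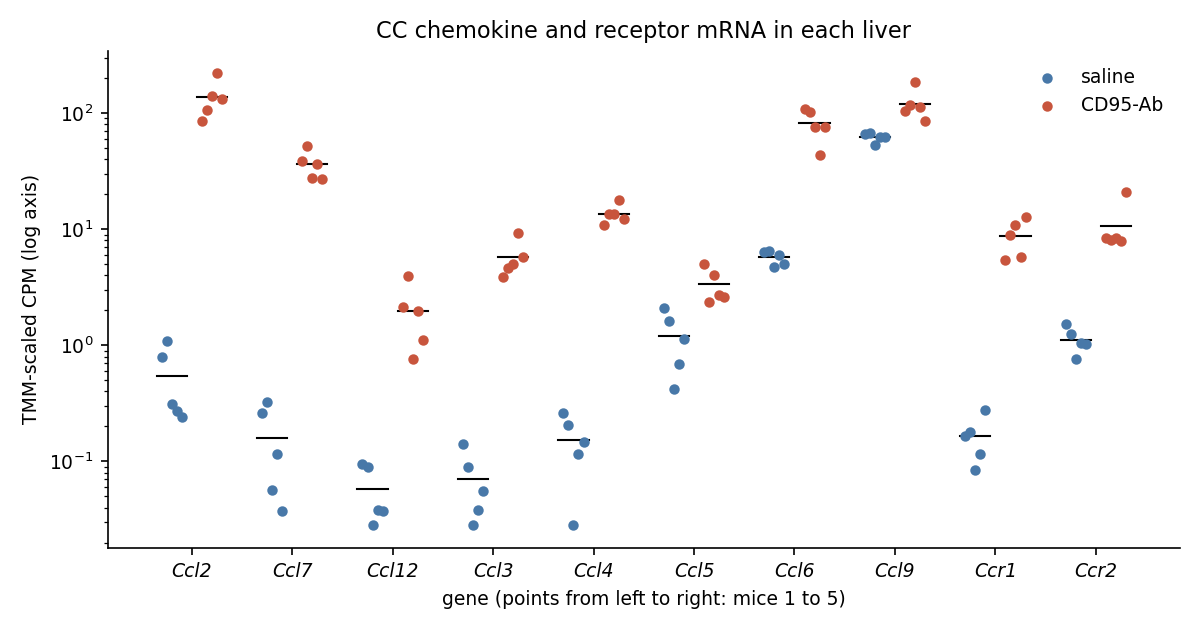
TMM-scaled CPM (log axis) of each gene in each mouse, with saline-injected controls in blue, mice injected with CD95-Ab in red and a black line at the mean of 5 mice. All red points lie above all blue points of the same gene, with a wide gap for Ccl2 and Ccl7 and a narrow one for Ccl5 and Ccl9.

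Ccl2, the main monocyte attractant of the family (chr11:82035571-82037453, GRCm38), was measured at 0.800, 1.10, 0.310, 0.269 and 0.241 CPM in controls. In mice injected with CD95-Ab, Ccl2 was measured at 85.1, 107, 141, 220 and 132 CPM. The lowest of these was 77.6 times the highest control, and the groups were far apart. The mean rose from 0.543 ± 0.385 to 137 ± 51.4 CPM (SD, n = 5 per group), with a log2 fold change of 7.97 (SE 0.48, FDR by edgeR = 5.21e-07). Among the 13719 tested genes, this increase ranked 16 from the top.

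Ccl7, which binds both CCR1 and CCR2 (chr11:82045712-82047525), was found at 0.259, 0.326, 0.0563, 0.115 and 0.0371 CPM in controls. After CD95-Ab it was found at 38.8, 52.3, 27.6, 36.4 and 27.0 CPM. Its rise of 7.86 on the log2 scale (SE 0.42, FDR by edgeR = 2.69e-07) ranked just behind that of Ccl2, at 17. The controls held 29 counts of Ccl7 in all, and 3 of the 5 had 3 counts or fewer, so that the ratio of summed counts of 230 carried an exact 95% counting interval of 160 to 344.

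Ccl12, a mouse ligand of CCR2 (chr11:82101845-82103400), stayed rare in comparison. Controls had 0.0941, 0.0889, 0.0282, 0.0385 and 0.0371 CPM, which was 11 counts in all and 3 or fewer in 4 of the mice. Mice injected with CD95-Ab had 2.15, 3.95, 0.756, 1.98 and 1.11 CPM, a 5.22-fold range between the lowest and the highest mouse and the widest of the 10 genes in that group. The groups did not overlap, and the log2 fold change was 5.03 (SE 0.55, FDR by edgeR = 2.29e-05). With a prior count of 2 in place of the default of edgeR the log2 fold change was 4.15, and the ratio of summed counts was 33.1 with a counting interval of 18.2 to 66.9.

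Ccl3 and Ccl4, neighbouring genes for inflammatory proteins of macrophages, rose to a similar degree. Ccl3 (chr11:83647844-83649355) was at 0.141, 0.0889, 0.0282, 0.0385 and 0.0556 CPM in controls and at 3.92, 4.62, 4.98, 9.37 and 5.71 CPM after CD95-Ab. Its log2 fold change was 6.23 (SE 0.39, FDR by edgeR = 7.00e-07), from 14 counts in all controls together, and 5.47 with a prior count of 2. Ccl4 (chr11:83662584-83664683) was at 0.259, 0.208, 0.0282, 0.115 and 0.148 CPM in controls and at 10.9, 13.7, 13.4, 17.9 and 12.1 CPM after CD95-Ab. Its log2 fold change was 6.42 (SE 0.32, FDR by edgeR = 2.11e-07). The mice injected with CD95-Ab were more alike for Ccl4 than for any other of the 10 genes, with a coefficient of variation of 19.5%, and mouse 4 was the highest for Ccl2, Ccl3 and Ccl4.

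Ccl5, known as a product of T cells and NK cells (chr11:83525778-83530518), changed less. It was found at 2.09, 1.63, 0.423, 0.693 and 1.13 CPM in controls and at 5.01, 2.36, 4.06, 2.70 and 2.61 CPM after CD95-Ab. The lowest mouse of the antibody group was 1.13 times the highest control, and the log2 fold change was 1.47 (SE 0.39, FDR by edgeR = 0.00844). On the FPKM scale the ranges overlapped, from 0.920 to 5.01 in controls and from 4.80 to 11.9 after CD95-Ab.

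Ccl6 and Ccl9 are ligands of CCR1 made by macrophages and other myeloid cells, and they were the ligands most abundant in control livers. Ccl6 (chr11:83587882-83593087) was at 6.42, 6.52, 4.73, 6.04 and 5.01 CPM in controls and at 109, 103, 76.4, 43.6 and 76.3 CPM after CD95-Ab. Its mean was 14.2 times higher, with a log2 fold change of 3.83 (SE 0.24, FDR by edgeR = 7.00e-07). Mouse 4, the highest for Ccl2, was the lowest for Ccl6, yet it was still above every control. Ccl9 (chr11:83572919-83578636) was at 66.2, 67.3, 52.9, 61.8 and 62.7 CPM in controls and at 104, 117, 185, 113 and 84.8 CPM after CD95-Ab. Controls were closely grouped, with a coefficient of variation of 9.09%, and the log2 fold change of 0.96 (SE 0.19, FDR by edgeR = 0.0014) was the smallest of the 10 genes. On the FPKM scale Ccl9 ranged from 23.2 to 40.1 in controls and from 33.5 to 70.7 after CD95-Ab, so that the groups overlapped.

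Both receptors rose. Ccr1 (chr9:123962124-123968692) was at 0.165, 0.178, 0.0845, 0.115 and 0.278 CPM in controls and at 5.42, 8.92, 10.8, 5.81 and 12.7 CPM after CD95-Ab. Its log2 fold change was 5.64 (SE 0.36, FDR by edgeR = 7.31e-07), and 2 of the controls had 3 counts or fewer. Ccr2 (chr9:124101950-124113557) was at 1.53, 1.25, 0.761, 1.04 and 1.02 CPM in controls and at 8.41, 8.12, 8.48, 7.91 and 20.8 CPM after CD95-Ab. Mouse 5 stood apart from the other 4 mice injected with CD95-Ab, which lay close together. The log2 fold change of Ccr2 was 3.26 (SE 0.32, FDR by edgeR = 1.16e-05) with mouse 5 and 2.87 (SE 0.20, FDR by edgeR = 3.85e-06) without it.

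Control livers differed among themselves in the same manner for most of these genes. Controls 1 and 2 were both above controls 3, 4 and 5 for 9 of the 10 genes, the exception being Ccr1, whereas 16.5% of tested genes showed that order. For Ccl3 and for Ccl12 it rested on few counts, with 3 or fewer in 4 of the controls. The order was taken from the values of these same genes, so that its share among them is a description and no test. Summed markers of Kupffer cells showed it too, with 490 and 625 CPM in controls 1 and 2 and 187, 316 and 331 CPM in controls 3, 4 and 5, as did summed monocyte markers, with 21.4 and 26.8 CPM compared to 7.72, 10.6 and 12.7 CPM, and summed T cell and NK cell markers, with 7.25 and 5.90 CPM compared to 1.89, 3.66 and 3.47 CPM. Summed markers of neutrophils, hepatocytes, endothelial cells, stellate cells and red cells did not show it. The part of these cells in the spread of the controls was not tested. After CD95-Ab the mice had no such common order. The highest mouse was mouse 1 for Ccl5 and Ccl6, mouse 2 for Ccl7 and Ccl12, mouse 3 for Ccl9, mouse 4 for Ccl2, Ccl3 and Ccl4, and mouse 5 for Ccr1 and Ccr2.

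Levels of different genes were compared as FPKM, which take transcript length into account, as a description with no test. In controls the order from the highest was Ccl9, Ccl6, Ccl5, Ccl2, Ccr2, Ccl4, Ccl7, Ccl12, Ccl3 and Ccr1. Ccl9 at 32.4 ± 7.20 FPKM (SD, n = 5) was separate from Ccl6 at 5.14 ± 1.46 FPKM, and all later neighbours overlapped in their ranges. Ccr1 was the lowest, at 0.0600 ± 0.0245 FPKM. After CD95-Ab the order was Ccl2, Ccl6, Ccl9, Ccl7, Ccl4, Ccl3, Ccl5, Ccl12, Ccr2 and Ccr1. Ccl2 led at 169 ± 44.1 FPKM and was separate from Ccl6 at 71.4 ± 27.3 FPKM. Ccl7 at 48.0 ± 15.9 FPKM was separate from Ccl4 at 21.7 ± 2.20 FPKM, and Ccl4 was separate from Ccl3 at 7.65 ± 2.10 FPKM. Neighbours overlapped in their ranges among Ccl6, Ccl9 and Ccl7, and again among the genes from Ccl3 down to Ccr1. On the CPM scale, which takes no account of length, the order after CD95-Ab was different, with Ccl9 next to Ccl2, below it in 2 of the 5 mice and overlapping in range, and with Ccr2 and Ccr1 following Ccl4.

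The make-up of the ligand mRNA thus turned over. The summed FPKM of the 8 ligands was 52.8, 53.5, 33.2, 39.5 and 29.5 in controls and 392, 394, 366, 399 and 345 after CD95-Ab. Ccl9 made up between 73.9% and 84.0% of this sum in controls and between 9.46% and 19.3% after CD95-Ab. Ccl2 made up between 0.911% and 3.01% in controls and between 32.3% and 60.4% after CD95-Ab, the largest share of the 8 ligands in every mouse of that group. The median share of Ccl6 was 11.9% in controls and 19.1% after CD95-Ab, and that of Ccl5 was 7.02% and 1.59%, and the ranges of the groups overlapped for both. Shares of a sum are bound to each other, so that a lower share of Ccl9 stood beside a higher level of Ccl9 itself.

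**Figure D2:**
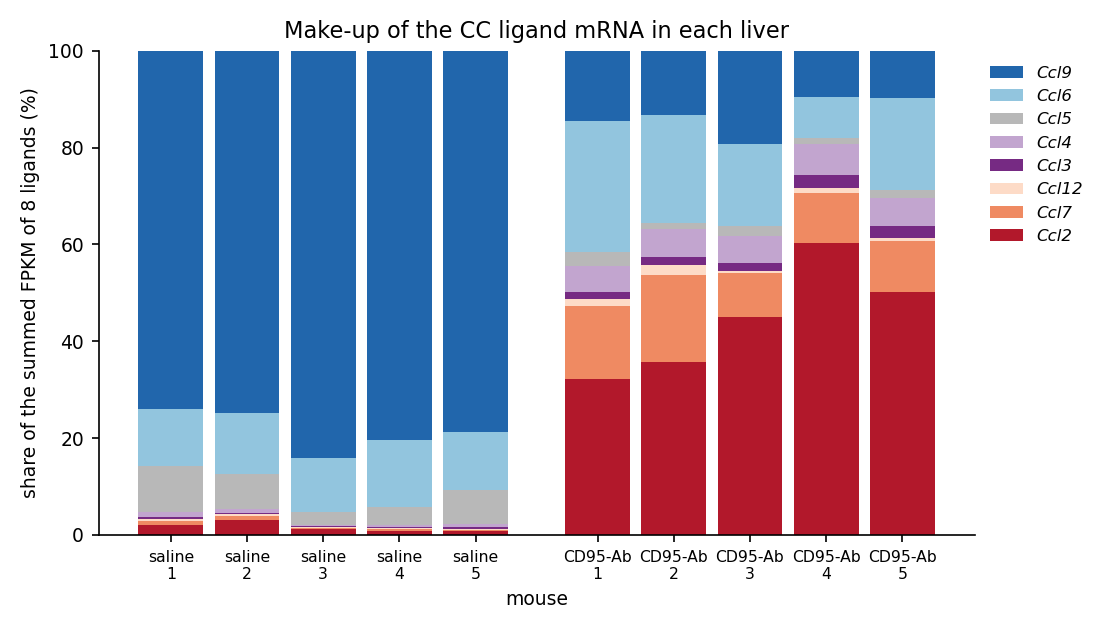
Share of each ligand in the summed FPKM of the 8 ligands (percent, stacked bars) in each of the 10 mice. Ccl9 (dark blue) fills most of the bar in the 5 controls, and Ccl2 (dark red) holds the largest share in the 5 mice injected with CD95-Ab, from 32.3% to 60.4%.

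Ratios of 2 genes within the same mouse do not depend on how a library is scaled, and 14 pairs of ligand and receptor, of neighbouring ligands and of the receptors were compared between groups with a two-sided exact permutation test on log2 ratios of counts. Of the 14, 11 differed at p of 0.05 or less and 10 of these after Benjamini-Hochberg adjustment. The 14 pairs were chosen with earlier results of these data known, so that this count is a description. A difference in a log2 ratio largely restates the fold changes of its 2 genes given above and adds no independent support to them. For the ligands of CCR2, Ccl2 rose above Ccr2 by 4.97 on the log2 scale and Ccl7 by 4.89, each with p = 0.00794 in the exact test (adjusted p = 0.0123), which is as low as a comparison of 5 with 5 mice can go. Ccl12 gained less on Ccr2, with a difference of 1.54 and overlapping groups (exact permutation test, p = 0.0476, adjusted p = 0.0606). Between the receptors, the ratio of Ccr1 to Ccr2 rose by 2.46 (exact permutation test, p = 0.00794, adjusted p = 0.0123).

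The ligands of CCR1 divided. Relative to Ccr1, Ccl9 fell by 4.72 on the log2 scale and Ccl7 rose by 2.43, and the log2 ratio of Ccl5 to Ccr1 went from 2.64 ± 0.67 to -1.36 ± 0.83 (SD, n = 5), each with p = 0.00794 in the exact permutation test (adjusted p = 0.0123). The ratio of Ccl6 to Ccr1 fell by 1.86 with overlapping groups (exact permutation test, p = 0.0159, adjusted p = 0.0222). For Ccl3 and Ccr1 the difference was 0.54 (exact permutation test, p = 0.294), with log2 ratios of -1.14 ± 0.70 in controls and -0.60 ± 0.77 after CD95-Ab (SD, n = 5). Each control held only 3 to 15 counts of Ccr1, so that the size of all these differences rests on few counts. For Ccl7, with 2 to 11 counts in a control, the difference was 1.86 without control 5.

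Among ligand genes that lie near each other, the ratio changed for some pairs and was not called different for others. Ccl2 and Ccl12, and likewise Ccl5 and Ccl3, have other CC genes between them. The ratio of Ccl2 to Ccl7 differed by 0.08 between groups (exact permutation test, p = 0.857) and that of Ccl3 to Ccl4 by -0.41 (p = 0.151). Controls held 1 to 6 counts of Ccl3, 1 to 11 of Ccl4 and 2 to 11 of Ccl7, so that neither test shows that a pair moved together. With 1 added to each count in place of 0.5, Ccl3 to Ccl4 had p = 0.0556 in the exact permutation test. In contrast, Ccl2 rose above Ccl12 by 3.43, Ccl3 above Ccl5 by 4.54 and Ccl6 above Ccl9 by 2.86, each with p = 0.00794 in the exact permutation test (adjusted p = 0.0123). Ccl6 to Ccl9 was the tightest ratio in controls, at -3.44 ± 0.13 (SD, n = 5), and it reached -0.58 ± 0.68 after CD95-Ab. Each control held 157 to 273 counts of Ccl6 and 1605 to 3380 of Ccl9. Every other pair had a gene with 89 counts or fewer in each control, so that counting error weighed more on its spread.

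**Figure D3:**
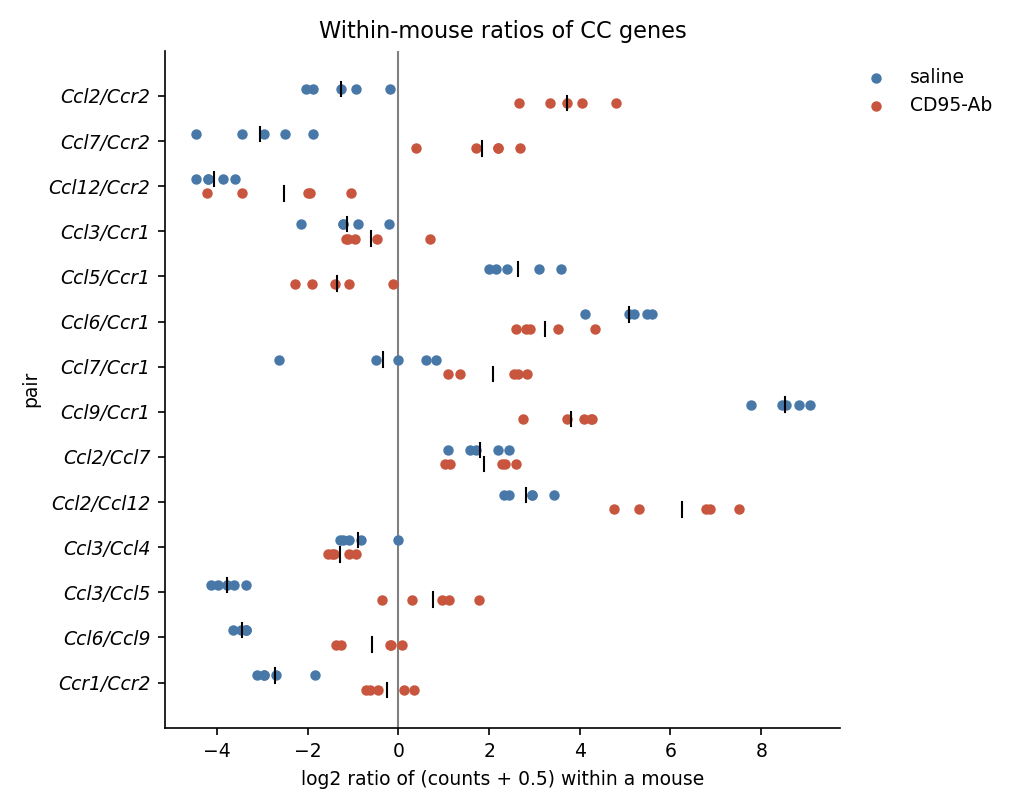
Log2 ratio of counts (with 0.5 added to each) of 14 gene pairs in each mouse, with controls in blue, mice injected with CD95-Ab in red and black ticks at group means. Ccl2/Ccl7, Ccl3/Ccl4, Ccl3/Ccr1, Ccl6/Ccr1 and Ccl12/Ccr2 overlap between groups, whereas for Ccl9/Ccr1 all red points lie left of all blue points.

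The 8 ligand genes lie in 2 groups on chromosome 11, 1422377 bases apart, and the receptors on chromosome 9. Ccl2, Ccl7 and Ccl12 lie within 67830 bases, Ccl5, Ccl9, Ccl6, Ccl3 and Ccl4 within 138906 bases, and Ccr1 and Ccr2 within 151434 bases. Both genes with log2 fold changes under 2 lay in the same group as Ccl3 and Ccl4. Within 500 kb of that group, 18 genes outside the CC family were tested, of which 9 were higher and 4 were lower, compared to 25.4% and 22.0% of all tested genes. Around the receptors, 2 of 9 such genes were higher and 2 were lower, near those shares. The single such gene tested near Ccl2, Tmem132e, was higher, with a log2 fold change of 1.24 (SE 0.28, FDR by edgeR = 0.0033).

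Promoters from RefSeq (GRCm38.p6) were matched for 6 of the 10 genes, Ccl3, Ccl6, Ccl9, Ccl12, Ccr1 and Ccr2. The 100 bases before the start are shown for the neighbours Ccl6 and Ccl9, whose ratio changed, and for Ccl12, with TATAAA in capitals.
Ccl6, chr11:83593088-83593187, minus strand: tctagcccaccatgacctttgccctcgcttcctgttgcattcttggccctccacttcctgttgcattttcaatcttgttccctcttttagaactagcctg
Ccl9, chr11:83578637-83578736, minus strand: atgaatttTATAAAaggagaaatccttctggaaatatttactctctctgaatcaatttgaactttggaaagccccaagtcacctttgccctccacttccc
Ccl12, chr11:82101745-82101844, plus strand: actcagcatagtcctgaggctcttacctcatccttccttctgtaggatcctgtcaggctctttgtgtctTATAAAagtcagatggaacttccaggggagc
TATAAA was found on either strand in 2 of the 6 windows, which run from 250 bases before to 50 after the start, and in 13.6% of 32851 windows of the same length. In Ccl12 it began at position -31 from the start, and in Ccl9 it lay further away, at -92, with matches on the opposite strand at -94, overlapping it, and at -224. A form of the NF-kB site, GGGA and TTCC with any 2 bases between them, was found in none of the 6 windows and in 1.47% of all windows on either strand. The windows of Ccl6 and Ccl9 aligned over 74 columns with 58 identical, the longest match among the 15 pairs of these windows. This match began at position -59 in Ccl6 and at -18 in Ccl9, so that in Ccl9 most of it lay past the start. A match of letters is a description and does not show that a factor binds there.

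Of 25 other CC ligands, receptors and atypical receptors in the tables, 14 passed the filter on low counts, 9 were higher, 3 were lower and 2 were not called (25.4% of tested genes were called higher and 22.0% lower). These counts depended on the filter, since Ccl11 and Ccl22 had at most 1 and 3 counts in a control and entered through the antibody group. With at least 10 counts in every mouse, 3 were higher and 2 lower, and without a filter 13 were higher and 3 lower. Among the other ligands, the eosinophil attractants Ccl11 and Ccl24 rose, with Ccl24 from 1.82 ± 0.75 to 27.4 ± 11.7 CPM (SD, n = 5) and a log2 fold change of 3.90 (SE 0.37, FDR by edgeR = 8.01e-06). Ccl11 had 2 counts in all controls together and 137 after CD95-Ab, a ratio of 80.6 with an exact 95% counting interval of 21.9 to 672. Ccl22, made by macrophages and dendritic cells, rose by 5.94 on the log2 scale (SE 0.48, FDR by edgeR = 2.83e-06), from 6 counts in all controls together. Ccl19, a ligand of CCR7, rose by 2.50 (SE 0.32, FDR by edgeR = 6.74e-05), and the skin-associated ligand Ccl27a fell by 0.73 (SE 0.23, FDR by edgeR = 0.0202). Ccl21a and Ccl25 had log2 fold changes of -0.58 (FDR by edgeR = 0.455) and 0.18 (FDR by edgeR = 0.588).

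Receptors other than Ccr1 and Ccr2 also rose. The log2 fold changes were 2.56 for Ccr7, the receptor of dendritic cells and naive T cells, 1.84 for the eosinophil receptor Ccr3, and 1.24 for Ccr9. The atypical receptors bind their ligands without G protein signaling, and they divided. Ccrl2 rose by 4.19 on the log2 scale (SE 0.31, FDR by edgeR = 1.66e-06) and Ackr1, found on venules and red cells, by 2.65 (SE 0.25, FDR by edgeR = 6.73e-06). Ackr2 and Ackr4, which take up and degrade CC ligands, fell by 1.26 (SE 0.47, FDR by edgeR = 0.0423) and by 1.57 (SE 0.43, FDR by edgeR = 0.0107). The call of Ackr2 was lost when any of 7 mice was left out, with FDR values between 0.065 and 0.0955 by edgeR, that of Ccr9 when any of 4 mice was left out, with FDR values between 0.0561 and 0.073 by edgeR, and that of Ccl27a when control 5 (FDR by edgeR = 0.05004) or mouse 2 of the antibody group (FDR by edgeR = 0.0538) was left out. With the replicate number as a block, Ccr9 (FDR by edgeR = 0.0639) and Ccl27a (FDR by edgeR = 0.0676) were not called.

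**Figure D4:**
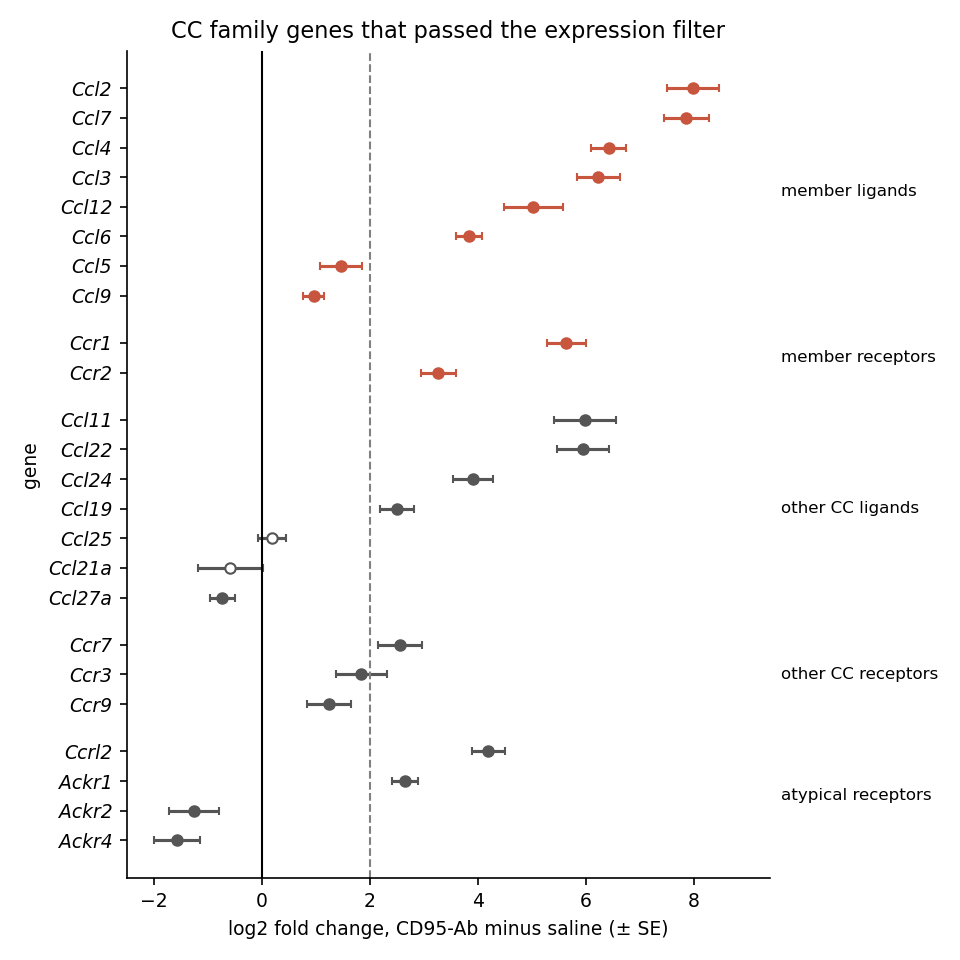
Log2 fold change (CD95-Ab minus saline, with SE) of 24 CC family genes that passed the filter on low counts, with the 10 chosen genes in red, the others in grey and open circles for genes not called. The dashed line marks the threshold of 2, and the chosen genes range from 0.96 for Ccl9 to 7.97 for Ccl2.

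Of 19 genes that carry signals from chemokine receptors, 13 were higher and 2 were lower after CD95-Ab, compared to 25.4% and 22.0% of all tested genes. The largest increases were those of Pik3r5, a regulatory subunit of the phosphoinositide kinase that G proteins activate, with a log2 fold change of 2.89, of Rgs1, which ends G protein signals, with 2.33, and of the leukocyte GTPase Rac2, with 2.25. Ptk2b and Nup85 fell by 0.34 and 0.32. The inhibitory G protein gene Gnai2 rose by 0.75 (SE 0.11, FDR by edgeR = 0.000196).

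Tested markers of monocytes and neutrophils were higher after CD95-Ab, as were the 10 genes and many markers of other cell types. The counts of each list stand beside 25.4% of all tested genes called higher and 22.0% called lower. All 9 monocyte markers were higher, led by F13a1 with a log2 fold change of 6.87, Chil3 with 6.32 and Vcan with 5.90, and their sum went from a range of 7.72 to 26.8 CPM to one of 112 to 203 CPM. All 7 tested neutrophil markers of 10 were higher, led by Mmp8 with a log2 fold change of 6.57, S100a8 with 6.44 and S100a9 with 6.16, with sums of 4.19 to 10.8 and 110 to 465 CPM. Of 10 Kupffer cell markers 2 were higher, Marco and Cd5l, a share near that of all genes, and the sums of 187 to 625 and 360 to 787 CPM overlapped. Of 10 T cell and NK cell markers 8 were higher, with sums of 1.89 to 7.25 and 9.61 to 15.7 CPM. Endothelial markers were higher in 5 of 6 and stellate cell markers in 4 of 6. No marker of these lists was at 0 in all mice. Red cell markers were higher in 7 of 7, with sums of 135 to 325 CPM in controls and of 1064 to 34013 CPM after CD95-Ab. Of 9 hepatocyte markers 4 were lower and 1, Fgb, was higher, with sums of 111257 to 135076 and 56082 to 93912 CPM. The part of these cells in the levels of the 10 genes was not tested.

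Mouse 5 of the antibody group, which had the highest Ccr2, also had the highest sum of monocyte markers, at 203 CPM, although mouse 2 was close at 198 CPM with a Ccr2 of 8.12 CPM. In mouse 5, 5 of the 9 monocyte markers were at their highest among mice injected with CD95-Ab, with Chil3 at 31.5 CPM compared to 8.68 to 15.7 CPM in the others, whereas Ly6c2 was at 12.8 CPM, within the range of 7.52 to 30.5 CPM of the others. Mouse 4, the highest for Ccl2, Ccl3 and Ccl4, had the lowest sums of its group for monocyte markers (112 CPM) and Kupffer cell markers (360 CPM). It was also the lowest for T cell and NK cell markers (9.61 CPM) and stellate cell markers (311 CPM). The sums for neutrophils, endothelial cells, hepatocytes and red cells were lowest in other mice.

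The genes whose deviations from the group means were most like the mean deviation of the 10 genes across the 10 mice were Fpr2, Aif1, Myo1g, Evi2a and Cd44, with Pearson's r between 0.959 and 0.993 among 12119 candidates, given as a description. The mean deviation was set mostly by the controls, at 0.52 and 0.46 on the log2 scale in controls 1 and 2 and -0.60 in control 3, whereas mice injected with CD95-Ab lay between -0.08 and 0.11. Of these 5 genes, Aif1, a macrophage gene, was not called (log2 fold change 0.55, FDR by edgeR = 0.296), and Fpr2, a receptor for formyl peptides, rose by 3.55 (SE 0.42, FDR by edgeR = 4.06e-05).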

How the data were processed

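Liver RNA of 10 mice, 5 injected with saline and 5 with CD95-Ab, was analysed, and groups and replicate numbers came from the sample labels. The authors assigned reads to genes with RSEM version 1.2.19, per the labels, and deposited for each mouse expected counts, which are whole numbers and not normalized, and FPKM, which are scaled for transcript length and library total. RSEM shares out reads that match several genes, so that step affects the values of close paralogs. The build and the mouse annotation release are not given in the sources used here. No batch is given in the labels. Symbols and positions were taken from a mouse GENCODE annotation (GRCm38), which named 37606 of the 38922 identifiers.

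The filter was filterByExpr with its minimum count of 10, and library totals were adjusted by TMM. CD95-Ab was compared with saline by the edgeR 4.0.16 quasi-likelihood test (R 4.3.3) on group alone, with Benjamini-Hochberg adjustment over 13719 genes. The code was tested on simulated data. Thresholds were an FDR of 0.05 and a log2 fold change of 2, as in the methods of the study. CPM were scaled to TMM-adjusted totals, and fitted log2 fold changes used the default prior count of edgeR. Each SE was the absolute log2 fold change divided by the square root of the F statistic of the quasi-likelihood test. It was not a standard error estimated by the model, and it depends on the prior count. Error bars in the plot of log2 fold changes of the CC family genes show this SE. Ratios of genes within a mouse were taken on counts + 0.5 and compared with a two-sided exact permutation test. FPKM served for the order of levels and for shares. Counting intervals cover counting error only, since reads are not independent molecules, and depth was between 25965699 and 62097636 counts. Tables were made with Python 3.11.15, pandas 2.3.3, scipy 1.17.1 and matplotlib 3.10.9, and promoters were aligned with Biopython 1.88.

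The genes named are the 10 chosen genes, every other CC family gene that was tested, up to 3 genes with the largest changes of each list, and the 5 genes most like the chosen ones. Gnai2, Nup85, Ptk2b, Fgb, Tmem132e and Ly6c2 fall outside this rule and were chosen after their values were seen. The chosen genes, the lists of receptor signaling genes and cell type markers and the 14 ratios were chosen with earlier results of these data known. An item of the lists is not reported here. Alternatives were DESeq2 1.42.0, the likelihood ratio test of edgeR, other normalization factors, other filters on low counts, another prior count or pseudocount, FPKM for the ratios, CPM for the order of levels, a block for the replicate number, and leaving out each mouse.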

Additional observations from a re-analysis of the deposited data

Results flagged for a closer look

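Among 48 groups of 5 mice (24 CC family genes in 2 groups), 5 held a mouse whose gap to the nearest other mouse was over 0.71 of the whole range, where chance alone gives about 1 in 20 groups. Ccr2 was at 20.8 CPM in mouse 5 of the antibody group, compared to between 7.91 and 8.48 CPM in the other 4 mice. Without that mouse the mean was 8.23 ± 0.26 CPM (SD, n = 4) and Ccr2 was still called higher.

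Ccl11 was at 1.43 CPM in mouse 3 of the antibody group, compared to between 0.731 and 0.807 CPM in the others. In the same mouse Ackr2 was at 1.83 CPM, compared to between 0.481 and 0.819 CPM. In control 4, Ccl19 was at 0.308 CPM, below the 0.712 to 0.870 CPM of the other controls, and Ackr4 was at 1.19 CPM, above their 0.447 to 0.612 CPM.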

How the results depend on the processing

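All 10 genes were called higher under DESeq2, the likelihood ratio test of edgeR, other normalization factors, no filter and with each mouse left out, and 8 of the 10 passed both thresholds under each of these. Leaving out each mouse in turn gave 10 to 10 calls, or 8 to 8 with both thresholds, 8 to 9 other CC genes higher and 1 to 3 lower, 3142 to 3581 genes of all tested higher, or 853 to 1017 with both thresholds, and 10 to 11 ratios. The other CC genes lower fell to 1 without control 5 or without mouse 2 of the antibody group. With at least 10 counts in every mouse, only Ccl5, Ccl6, Ccl9 and Ccr2 were tested of the 10, so that 4 were called higher and 2 passed both thresholds, 3 other CC genes were higher, and 534 of all genes passed both thresholds. Without a filter on low counts 1374 genes did, compared to 904, since more genes with few counts were tested. No direction of a called result was reversed.

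Replicate numbers did not pair the mice: same-numbered mice deviated with r from -0.274 to 0.257, over 0.1 in 2 of 5 pairs, and 2 of 5 controls correlated best with their own number. With the replicate block, 10 and 8 of the 10 genes were called, 8 other CC genes were higher and 2 lower, and 3310 and 924 of all genes were called. Of the ratios 0 passed, because 5 sign flips cannot give a p below 0.0625. The ratio of Ccl12 to Ccr2 had p = 0.0873 in the exact permutation test with a pseudocount of 1, and between 0.0159 and 0.0952 with a mouse left out, under 0.05 only without mouse 5 of the antibody group. Genes with 3 counts or fewer in several controls are limited by depth, and their fold changes depend on the prior count. Library totals alone moved the median of all genes to -0.07 on the log2 scale.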
